A study of Mus musculus with 20 samples.

Results

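The account covers 10 genes that encode matricellular proteins and other secreted products of activated fibroblasts, out of 25851 genes in a table of RNA levels in mouse hearts. They are Postn, Tnc, Spp1, Sparc, Fn1, Lox, Cilp, Cthrc1, Olfml2b and Prg4. The genes were taken by symbol, with no threshold, but the list was chosen by someone who knew results of these same libraries, so it was selected on FPKM values of the 4 groups. Which comparison led to it is not recorded. The members' values are therefore given as a description in every comparison, and a count of members past a threshold carries no weight beyond these genes.

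Total RNA of 20 hearts, 5 in each group, was sequenced after poly-A selection. The donors were male mice of 14 to 16 weeks. The groups were sedentary wild-type mice, sedentary mice labelled as a cardiomyocyte PGC-1α knockout, wild-type mice after 6 weeks of voluntary wheel running, and mice labelled as the same knockout after 6 weeks of wheel running. The labels do not give the Cre driver, the deleted part of the gene, when it was deleted or whether wild-type mice were littermates, and each library carries the same batch label. Ppargc1a, which encodes PGC-1α, a coactivator of mitochondrial gene expression, was higher and not lower in hearts labelled knockout. Its level was 12.3 ± 2.85 FPKM (SD, n = 5) in sedentary wild-type, 22.9 ± 4.41 FPKM in sedentary labelled knockout, 15.8 ± 4.86 FPKM in trained wild-type and 22.6 ± 3.01 FPKM in trained labelled knockout hearts. FPKM is the number of fragments scaled by exon length and library size, so levels of different genes can be compared per length. The value covers all exons, and since a knockout was not visible in it the groups are called labelled knockout. Cardiomyocyte markers, which define the tissue, were abundant in all 20 libraries.

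Matricellular proteins are secreted into the extracellular matrix but act mainly on cells, by binding integrins and growth factors, rather than as load-bearing fibres. In the healthy adult heart most are low. They are known to rise when resident fibroblasts turn into matrix-producing cells after infarction or pressure overload, and periostin is widely used as a marker of that state. Enzymes such as lysyl oxidase then crosslink the collagen that these cells lay down. Macrophages are another known source of osteopontin, the product of Spp1.

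Whole libraries differed in ways that touch the results. Depth was 14.2 to 30.4 M reads per library. Myl7, an atrial myosin light chain, marked 4 trained libraries, replicates 4 and 5 of the wild-type and replicates 2 and 5 of the labelled knockout mice, with 1355 to 3484 FPKM where the remaining 16 had 97.1 FPKM or less. Arntl, a clock gene, exceeded 2 FPKM in 5 sedentary libraries, 4 of them wild-type (replicates 1 to 4) and 1 labelled knockout (replicate 1). For the members, results that rest on these libraries are given with and without them. Changes of marker and pathway lists are given from the fit of all 20 libraries alone. In bulk hearts, more cells of a type and more RNA per cell cannot be told apart.

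Promoter sequences were matched in RefSeq (GRCm38.p6) for 6 of the 10 genes, and the 250 bases before the start were read on the gene's own strand. Windows for 4 of them are shown because these genes bracket the patterns described next. Postn, Cilp and Tnc were low in 3 groups and high in the fourth. Within those 3 groups the Tnc mean was above that of sedentary wild-type hearts without overlap. It was 2.60 times higher in trained wild-type and 2.06 times higher in sedentary labelled knockout hearts. Olfml2b was already 3.05 times higher in trained than in sedentary wild-type hearts. Capitals mark TATAA in the windows of Postn, Cilp and Tnc and GTCTG, the reverse complement of CAGAC, in that of Olfml2b.
Postn, chr3:54360857-54361106, plus strand: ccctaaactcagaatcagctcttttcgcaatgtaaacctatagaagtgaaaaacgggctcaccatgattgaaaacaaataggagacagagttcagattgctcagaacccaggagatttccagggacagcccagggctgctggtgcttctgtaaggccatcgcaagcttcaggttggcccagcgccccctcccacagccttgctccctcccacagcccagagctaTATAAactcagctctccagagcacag
Cilp, chr9:65264930-65265179, plus strand: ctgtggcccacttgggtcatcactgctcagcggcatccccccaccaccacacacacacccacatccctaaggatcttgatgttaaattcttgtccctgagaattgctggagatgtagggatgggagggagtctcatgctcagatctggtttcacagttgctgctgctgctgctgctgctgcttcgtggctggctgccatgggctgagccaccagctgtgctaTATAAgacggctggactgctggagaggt
Tnc, chr4:64047016-64047265, minus strand: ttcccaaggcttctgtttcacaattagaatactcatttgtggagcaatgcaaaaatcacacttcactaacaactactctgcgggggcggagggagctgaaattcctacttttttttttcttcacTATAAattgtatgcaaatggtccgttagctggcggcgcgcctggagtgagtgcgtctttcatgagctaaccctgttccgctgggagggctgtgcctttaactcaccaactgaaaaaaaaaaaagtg
Olfml2b, chr1:170644282-170644531, plus strand: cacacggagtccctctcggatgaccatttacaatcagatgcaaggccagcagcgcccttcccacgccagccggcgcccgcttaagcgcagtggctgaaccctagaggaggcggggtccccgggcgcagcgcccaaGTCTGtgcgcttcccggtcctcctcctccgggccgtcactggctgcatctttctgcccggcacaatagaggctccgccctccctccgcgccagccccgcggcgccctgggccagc

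TATAA began 26 bases before the start in Postn (-26 to -22) and 28 bases before it in Cilp (-28 to -24), and lay far upstream in Tnc (-126 to -122) and Spp1 (-211 to -207). Sparc and Olfml2b had none, so 4 of the 6 windows held it. Olfml2b was 69.6% G and C, against 52.0% in Postn, 56.0% in Cilp and 44.8% in Tnc. Of 32851 windows of the same length 22.8% held TATAA on either strand. This motif was chosen after the sequences were seen. CAGAC, the SMAD box, lay at -115 to -111 in Olfml2b, at 2 places in Spp1 (-33 to -29 and -5 to -1) and once in Sparc (-35 to -31), and 42.2% of all windows held it. TGANTCA, the AP-1 site (6.7% of windows), GGAATG, the TEAD site (12.6%), and the CArG box of serum response factor (1.5%) were in none of the 6 windows. That says only that these letters are not there.

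Postn, Tnc, Spp1 and Sparc are the classical matricellular genes of the set. All 4 had their highest group mean in trained labelled knockout hearts. Postn (ENSMUSG00000027750, chromosome 3, 54361109 to 54391037 on the plus strand of GRCm38, protein coding) encodes periostin, which binds integrins and helps collagen assembly. Its level in replicates 1 to 5 was 3.72, 4.97, 2.95, 2.58 and 3.08 FPKM in sedentary wild-type and 4.04, 4.99, 4.67, 7.86 and 6.01 FPKM in sedentary labelled knockout hearts. After training it was 3.52, 6.91, 3.62, 6.66 and 6.88 FPKM in hearts of wild-type mice and 54.6, 14.3, 60.9, 101 and 13.3 FPKM in labelled knockout hearts. The lowest trained labelled knockout heart thus lay above each of the 15 other hearts, and within that group replicates 2 and 5 were far below the rest. Group means ± SD were 3.46 ± 0.938, 5.51 ± 1.49, 5.52 ± 1.78 and 48.9 ± 36.7 FPKM (n = 5 each, in the same order of groups). The first 3 overlapped. The mean in labelled knockout hearts was 8.87 times higher with training, with a log2 fold change of 2.66 ± 0.42 (SE). All log2 fold changes are differences of log2(FPKM + 0.5) from 1 limma fit over 13723 genes, a scale on which changes of low genes look smaller.

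Tnc (ENSMUSG00000028364, minus strand of chromosome 4, 63959785 to 64047015, protein coding) encodes tenascin-C, which loosens cell adhesion and is nearly absent from the resting adult heart. It was at 0.0983, 0.0804, 0.128, 0.0845 and 0.122 FPKM in sedentary wild-type and at 0.176, 0.275, 0.166, 0.228 and 0.209 FPKM in sedentary labelled knockout hearts. Trained wild-type hearts had 0.225, 0.392, 0.448, 0.131 and 0.137 FPKM and trained labelled knockout hearts 2.99, 0.977, 4.43, 4.29 and 1.12 FPKM. All libraries of the other 3 groups were above all sedentary wild-type libraries, and trained labelled knockout hearts were above all others, again with replicates 2 and 5 lowest. Reads behind these values numbered 10 to 21, 20 to 43, 16 to 58 and 163 to 816 a library in the 4 groups. With training in labelled knockout hearts the mean rose 13.1-fold (log2 fold change 2.02 ± 0.27), the highest ratio of means among the 10 genes in that comparison.

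Spp1 (ENSMUSG00000029304, plus strand of chromosome 5, 104435118 to 104441050, protein coding) encodes osteopontin, a cytokine-like integrin and CD44 ligand. Sedentary wild-type hearts had 0.0927, 0.227, 0, 0.0664 and 0.0273 FPKM and sedentary labelled knockout hearts 0.300, 0.362, 0.392, 1.04 and 0.507 FPKM. Trained wild-type hearts had 0.273, 0.645, 0.255, 0.292 and 0 FPKM and trained labelled knockout hearts 1.95, 1.16, 2.30, 2.33 and 2.65 FPKM. Groups of opposite genotype did not overlap in either activity, and replicate 5 of the trained labelled knockout group, low for Postn and Tnc, was its highest for Spp1. Counts were small, at 0 to 6, 10 to 25, 0 to 15 and 41 to 102 reads a library. The libraries at 0 allow up to 0.106 FPKM in sedentary wild-type replicate 3 and 0.121 FPKM in trained wild-type replicate 5, taking 3 reads as the limit. Such limits cover counting error only.

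Sparc (ENSMUSG00000018593, minus strand of chromosome 11, 55394500 to 55423183, protein coding) encodes osteonectin, which handles newly secreted collagen, and unlike the others it was abundant in each group. Per-group means were 97.0 ± 18 FPKM in sedentary wild-type, 113 ± 18.9 FPKM in sedentary labelled knockout, 111 ± 15.5 FPKM in trained wild-type and 213 ± 79.4 FPKM in trained labelled knockout hearts. Trained labelled knockout libraries spanned 141 to 335 FPKM, above the highest of the other 15 at 134 FPKM. This was the smallest training change of the set in labelled knockout hearts, 1.89-fold or 0.86 ± 0.20 on the log2 scale.

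**Figure D1:**
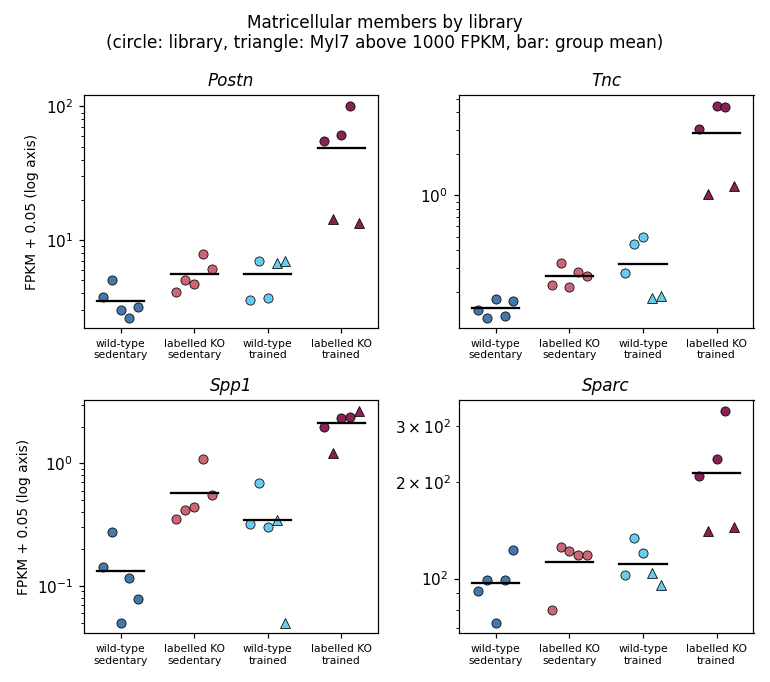
FPKM + 0.05 of Postn, Tnc, Spp1 and Sparc in each of 20 libraries on log axes, by group. Circles are libraries, triangles the 4 libraries with Myl7 above 1000 FPKM, and bars group means. Trained labelled knockout hearts sit above the other groups for all 4 genes, with both triangles of that group lowest for Postn, Tnc and Sparc but not for Spp1.

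Fn1 (ENSMUSG00000026193, minus strand of chromosome 1, 71585520 to 71653200, protein coding) encodes fibronectin, the adhesive glycoprotein of provisional matrix. Lox (ENSMUSG00000024529, minus strand of chromosome 18, 52516067 to 52529867, protein coding) encodes lysyl oxidase, which crosslinks collagen and elastin. Fn1 was at 3.75 to 9.88 FPKM in the first 3 groups. Trained labelled knockout hearts had 17.6, 10.6, 21.1, 29.2 and 14.4 FPKM, with no overlap. Trained wild-type hearts had 7.26 ± 1.84 FPKM against 4.98 ± 0.481 FPKM in sedentary wild-type hearts, and the ranges of these groups overlapped. Lox was at 0.337 to 1.36 FPKM in the first 3 groups. In trained labelled knockout hearts it was at 6.92, 1.58, 6.61, 10.5 and 1.29 FPKM, so that replicate 5 fell within the trained wild-type range of 0.706 to 1.36 FPKM. Training changed Fn1 by 1.58 ± 0.21 and Lox by 1.97 ± 0.38 on the log2 scale in labelled knockout hearts.

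Cilp (ENSMUSG00000042254, plus strand of chromosome 9, 65265180 to 65280605, protein coding) encodes cartilage intermediate layer protein, a secreted binder of TGF-β. It was at 3.25, 5.07, 1.17, 3.11 and 2.17 FPKM in sedentary wild-type and at 3.76, 3.81, 3.57, 16.3 and 4.31 FPKM in sedentary labelled knockout hearts. After training it was at 1.95, 6.77, 2.31, 1.87 and 0.983 FPKM in hearts of wild-type mice and at 49.5, 14.4, 63.7, 91.4 and 17.8 FPKM in labelled knockout hearts. Sedentary labelled knockout replicate 4 stood apart from its group and reached into the trained labelled knockout range, so the labelled knockout groups overlapped. The ratio of the trained group means, labelled knockout over wild-type, was 17.1, the highest of the set, with a log2 fold change of 3.76 ± 0.52.

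Cthrc1 (ENSMUSG00000054196, plus strand of chromosome 15, 39076932 to 39087121, protein coding) encodes a secreted collagen triple helix repeat protein made by activated fibroblasts. It was at most 0.514 FPKM in the first 3 groups, with 0 to 12 reads a library. Trained labelled knockout hearts had 1.70, 0.263, 1.60, 3.46 and 0.644 FPKM from 9 to 135 reads. Replicate 2 of these lay inside the range of both other groups it was compared with. Sedentary labelled knockout replicate 1 was at 0, which allows up to 0.0715 FPKM. The training change in labelled knockout hearts was 1.40 ± 0.31 on the log2 scale.

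Prg4 (ENSMUSG00000006014, minus strand of chromosome 1, 150449412 to 150466165, protein coding) encodes lubricin, a mucin-like proteoglycan best known from joint surfaces. Its level was 2.96, 3.30, 2.00, 2.16 and 2.02 FPKM in sedentary wild-type, 1.39, 2.67, 2.67, 4.35 and 2.47 FPKM in sedentary labelled knockout, and 2.65, 2.83, 2.62, 2.51 and 2.67 FPKM in trained wild-type hearts. Trained labelled knockout hearts had 21.4, 8.21, 20.8, 15.6 and 14.6 FPKM. The 3 other groups shared a range of 1.39 to 4.35 FPKM, and each trained labelled knockout heart was above it. Here replicate 5 came close to replicate 4, and replicate 2 alone was well below. The ratio of means was 5.95 for training in labelled knockout hearts (2.36 ± 0.23 on the log2 scale).

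Olfml2b (ENSMUSG00000038463, plus strand of chromosome 1, 170644532 to 170682789, protein coding) encodes a secreted olfactomedin-domain protein that binds chondroitin sulphate. Sedentary wild-type hearts had 3.01, 4.04, 3.77, 3.82 and 1.91 FPKM and sedentary labelled knockout hearts 3.88, 5.64, 3.28, 4.76 and 4.79 FPKM. Trained wild-type hearts had 8.63, 8.24, 9.15, 12 and 12.5 FPKM and trained labelled knockout hearts 15.2, 15.4, 15.0, 21.2 and 18.4 FPKM. The sedentary groups overlapped, the trained wild-type libraries were all above them, and the trained labelled knockout libraries were all above those. Training raised the mean 3.05-fold in wild-type (log2 fold change 1.49 ± 0.17) and 3.81-fold in labelled knockout hearts (1.83 ± 0.17).

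**Figure D2:**
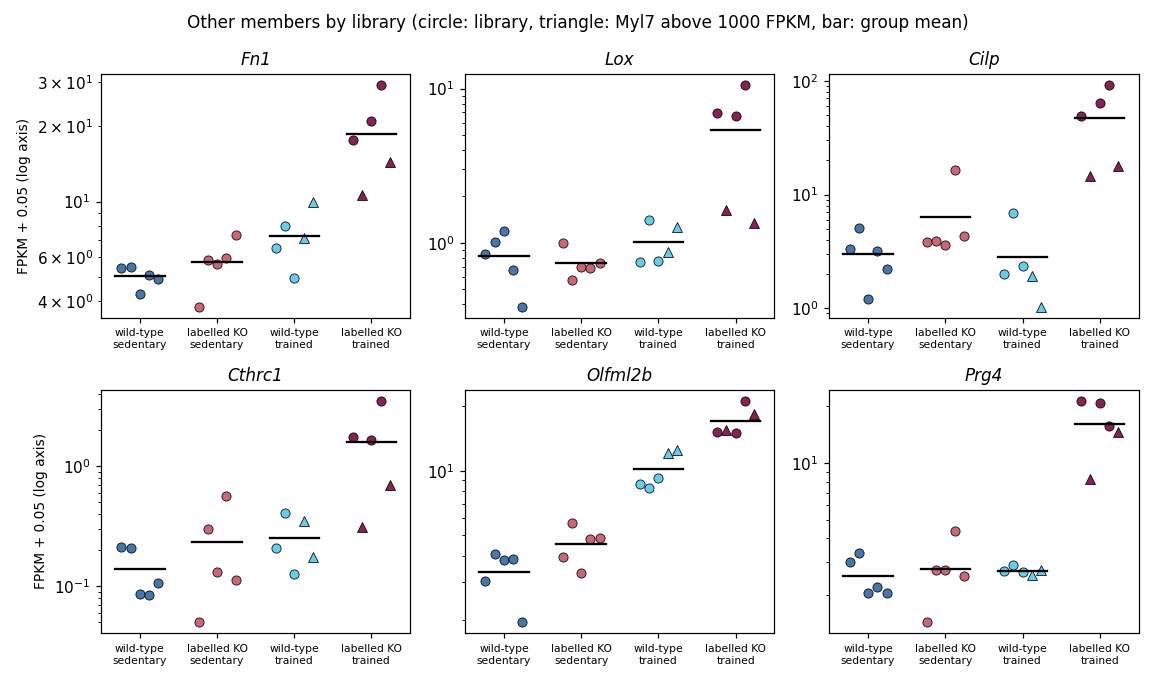
FPKM + 0.05 of Fn1, Lox, Cilp, Cthrc1, Olfml2b and Prg4 in each of 20 libraries on log axes, by group, with circles, triangles and bars as for the matricellular genes. Olfml2b steps up from sedentary to trained in both genotypes, while the other 5 genes are high in trained labelled knockout hearts, and Cilp is also high in 1 sedentary labelled knockout heart.

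By level per length, Sparc was far above the other members in each group. In sedentary wild-type hearts Fn1 (4.98 FPKM), Postn (3.46), Olfml2b (3.31), Cilp (2.95) and Prg4 (2.49) followed, with overlapping ranges from Postn to Prg4, then Lox (0.772). Tnc (0.102), Cthrc1 (0.0888) and Spp1 (0.0828) came last with overlapping ranges. In trained labelled knockout hearts Postn (48.9 FPKM) and Cilp (47.4) came next after Sparc, and Fn1 (18.6), Olfml2b (17) and Prg4 (16.1) lay together after them. Lox (5.37), Tnc (2.76), Spp1 (2.08) and Cthrc1 (1.53) remained the lowest. Tnc, Spp1 and Cthrc1 reached the mean of 0.5 FPKM needed for testing only through the trained labelled knockout libraries. Over the other 15 libraries their means were 0.193, 0.298 and 0.158 FPKM, and the mean of Cthrc1 over all 20, at 0.502 FPKM, was just inside the limit.

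The comparison of trained with sedentary labelled knockout hearts addresses what running did in hearts without cardiomyocyte PGC-1α, as the groups are labelled. All 10 members passed an adjusted p of 0.05 in the upward direction, where 28.4% of all tested genes passed, 12.1% upward and 16.3% downward. Groups did not overlap for 8 members, all but Cilp and Cthrc1, against 8.96% of all tested genes higher without overlap. The median log2 fold change was 1.90 over the members and -0.02 over all tested genes. The choice of genes may have used this comparison, so nothing is read from these counts.

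Trained labelled knockout against trained wild-type hearts asks how genotype mattered once mice had run, and it shares the trained labelled knockout libraries with the previous comparison. Again the 10 members were past the threshold and higher, where 27.9% of tested genes passed, 12.5% upward and 15.4% downward. No overlap was seen for 8 members, all but Lox and Cthrc1, against 8.07% of tested genes. Log2 fold changes ran from 0.73 ± 0.17 for Olfml2b to 3.76 ± 0.52 for Cilp, with a median of 1.70 over the members and -0.01 over all tested genes. Postn (2.68 ± 0.42), Prg4 (2.33 ± 0.23), Tnc (1.93 ± 0.27), Spp1 (1.72 ± 0.21) and Lox (1.69 ± 0.38) lay between, followed by Cthrc1 (1.33 ± 0.31), Fn1 (1.25 ± 0.21) and Sparc (0.87 ± 0.20). For 7 of 10 members the lowest trained labelled knockout library was above all other 15 libraries, against 3.01% of tested genes. The exceptions were Lox, Cilp and Cthrc1.

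Training in wild-type hearts was past the threshold for Olfml2b (95% interval of the log2 fold change 1.13 to 1.85) and for no other member, so for 1 of 10, where 5.47% of tested genes passed, 2.94% upward and 2.53% downward. Its change had been named in earlier results of these libraries. Olfml2b and Tnc were higher without overlap, against 2.24% of tested genes. The Tnc mean was 2.60 times higher, yet its log2 fold change of 0.33 (-0.23 to 0.89) did not pass in limma (adjusted p = 0.434). For Fn1 the interval lay above 0 (0.03 to 0.92, limma adjusted p = 0.164 over all genes). Spp1 had 0.41 (-0.04 to 0.86), Postn 0.58 (-0.31 to 1.46), Sparc 0.20 (-0.21 to 0.62) and Cilp -0.19 (-1.27 to 0.90). The median over members was 0.29, against -0.01 over all tested genes.

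The interaction subtracts the wild-type training change from that of labelled knockout hearts. It passed the threshold upward for 5 members, where 7.32% of tested genes passed, 2.32% upward. These were Cilp (2.93 ± 0.74), Prg4 (2.26 ± 0.32), Postn (2.08 ± 0.60), Tnc (1.69 ± 0.38) and Fn1 (1.10 ± 0.30). Lox (1.76 ± 0.53), Cthrc1 (1.16 ± 0.44), Spp1 (0.94 ± 0.30) and Sparc (0.65 ± 0.28) did not pass, with intervals above 0 before adjustment over genes. Olfml2b had 0.33 (-0.17 to 0.84), so its training changes in the 2 genotypes were not told apart. Leaving out 1 library moved the count to between 2 and 8, and it was 0 when the 5 high-Arntl libraries were dropped and a single sedentary wild-type library was left. Tnc and Prg4 passed whichever single library was left out, but the members may have been chosen for this pattern. Tnc also entered the test only through trained labelled knockout libraries, so nothing is read from these passes. With log2 Arntl as a covariate Prg4 alone passed, and Cilp, Postn, Tnc and Fn1 did not. Tnc also did not pass by limma voom on recovered reads. Postn did not pass without a filter or with TPM scaling, and Fn1 did not pass without a filter.

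**Figure D3:**
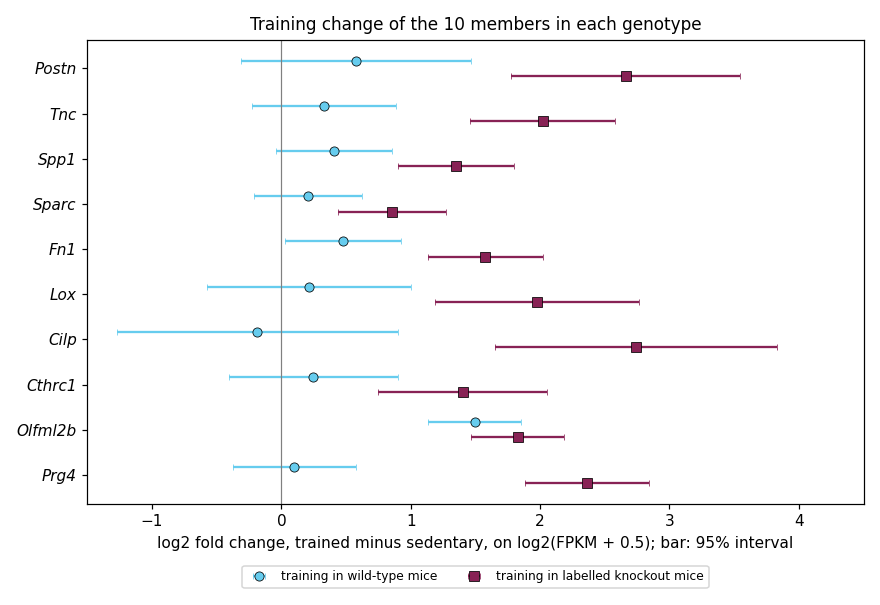
Log2 fold change of trained against sedentary hearts for each of the 10 genes on log2(FPKM + 0.5), circles for wild-type and squares for labelled knockout mice, with bars for 95% intervals. The squares lie between 0.86 and 2.74, and among the circles Olfml2b alone has an interval wholly above 1.

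Between the sedentary genotypes Spp1 alone passed the threshold, with a mean 6.27 times higher in labelled knockout hearts and a log2 fold change of 0.78 ± 0.21 (limma adjusted p = 0.0213). It was 1 of 10 members, where 13.3% of tested genes passed, 6.96% upward and 6.32% downward. Its fold rests on at most 6 reads a library in wild-type hearts. Spp1 entered the test only through trained labelled knockout libraries, with a mean of 0.298 FPKM over the other 15 libraries. The members were also chosen with earlier results of these libraries known, so nothing is read from this call. The call was lost without sedentary wild-type replicate 3 (the library at 0), without sedentary labelled knockout replicate 4 (the library at 1.04 FPKM), without the 5 libraries with high Arntl and with log2 Arntl as a covariate. Spp1 and Tnc were higher without overlap, against 5.14% of tested genes. Tnc had a mean 2.06 times higher (log2 fold change 0.24, -0.32 to 0.80, limma adjusted p = 0.578). For Olfml2b the log2 fold change was 0.40 (0.04 to 0.76, limma adjusted p = 0.126), for Cilp 0.83 (-0.25 to 1.92) and for Postn 0.60 (-0.29 to 1.49). Lox (-0.07) and Prg4 (0.06) had values near 0, with intervals of -0.85 to 0.72 and -0.42 to 0.54. Medians were 0.23 over the members and -0.01 over all tested genes.

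Among trained labelled knockout hearts the members did not vary as a block. In 8 of 10 members replicates 2 and 5, the libraries with high Myl7, were both below replicates 1, 3 and 4, against 22.8% of tested genes. The ratio of the mean of replicates 1, 3 and 4 to that of replicates 2 and 5 was 5.57 for Lox, 5.22 for Postn, 4.97 for Cthrc1, 4.23 for Cilp and 3.73 for Tnc. It was 1.82 for Sparc, 1.81 for Fn1 and 1.69 for Prg4. Spp1 (1.15) and Olfml2b (1.01) were the 2 members in which these libraries were not both lowest. Against the sedentary labelled knockout mean, replicates 2 and 5 were still higher on average for each member, from 1.27 times for Sparc to 4.96 times for Tnc. Gdf15, the stress cytokine the series is about, went below its sedentary mean in those libraries. It was at 36, 44.9 and 48.2 FPKM in replicates 1, 3 and 4 and at 15.6 and 12.2 FPKM in replicates 2 and 5, whose mean was 0.811 times the sedentary labelled knockout mean. Without the 4 libraries with high Myl7 all 10 members again passed in both comparisons that hold trained labelled knockout hearts, and 8 passed the interaction. In trained wild-type hearts the libraries with high Myl7 were both highest for 1 member, Olfml2b.

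**Figure D4:**
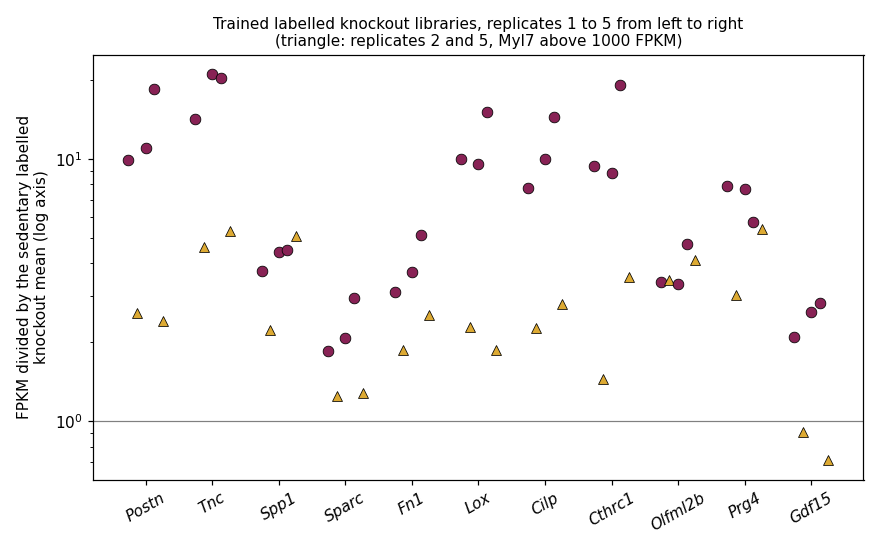
FPKM of each member and of Gdf15 in the 5 trained labelled knockout libraries, divided by the sedentary labelled knockout mean, on a log axis. Triangles are replicates 2 and 5, with Myl7 above 1000 FPKM, and the line marks a ratio of 1. The triangles are lowest for 8 members, mix with the circles for Spp1 and Olfml2b, and lie below the line only for Gdf15.

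Marker levels in the same libraries did not all move with the members. The sum of 10 fibroblast markers was 607 to 781 FPKM in sedentary wild-type, 711 to 967 FPKM in sedentary labelled knockout, 642 to 1145 FPKM in trained wild-type and 977 to 1551 FPKM in trained labelled knockout hearts. Within the last group it was highest in replicates 2 and 5 (1303 and 1551 FPKM, against 977 to 984 FPKM), where 8 members were lowest. Those libraries also differed in other marker sums. Atrial markers summed to 5616 and 4571 FPKM there, against 1499 to 2728 FPKM in replicates 1, 3 and 4. Erythroid markers summed to 1770 and 2458 FPKM, against 498 to 739 FPKM. Endothelial and epicardial sums overlapped. The sum of 10 macrophage markers was 95.9 to 151, 163 to 205, 111 to 189 and 226 to 391 FPKM in the 4 groups, and within the last it was lowest in replicates 2 and 5 (226 and 262 FPKM). The sum of 10 cardiomyocyte markers was 15018 to 17399 FPKM in trained labelled knockout hearts and 18467 to 27117 FPKM elsewhere. Valve and tendon markers summed to 5.43 to 16.6 FPKM in the first 3 groups and 15.2 to 46.9 FPKM in the fourth. None of the fibroblast, macrophage and cardiomyocyte markers was at 0 in all libraries of a group, and Tnmd, a tendon marker, was at 0 in all trained wild-type libraries. What part these cell types had in the members' values was not tested.

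By single genes, training in labelled knockout hearts raised 6 of 10 fibroblast markers (median 0.67), 8 of 10 macrophage markers (0.72) and 4 of 5 tested markers of recruited macrophages (0.78). Among fibroblast markers Mfap5 (1.45 ± 0.23), Pi16 (1.17 ± 0.21) and Lum (1.00 ± 0.14) rose. The receptor Pdgfra (0.44 ± 0.17) and the transcription factor Tcf21 (0.32 ± 0.15) did not pass, and between trained genotypes Tcf21 did (0.45 ± 0.15). The macrophage marker Adgre1 rose (1.29 ± 0.18). Of 10 cardiomyocyte markers 7 fell (median -0.59). Smooth muscle and pericyte markers went both ways, with 2 higher and 2 lower of 10. Of 9 tested epicardial markers 2 were higher, and of 4 valve and tendon markers 1. In the endothelial, atrial, adipocyte, Schwann cell and erythroid lists 0 of 10, 10, 9, 6 and 6 passed in limma. At an unadjusted p below 0.05, 1 endothelial marker was lower and 4 erythroid markers were higher. In wild-type hearts training raised 0 of 10 fibroblast markers, 3 of 5 recruited macrophage markers and 1 of 10 macrophage markers, where Cx3cr1 fell (-1.02 ± 0.26). It also raised Wt1 of 9 epicardial markers (1.11 ± 0.13) and Pecam1 of 10 endothelial markers (0.37 ± 0.09), and 0 genes of the other 7 marker lists passed in limma. At an unadjusted p below 0.05 in limma, 3 fibroblast and 5 of 6 erythroid markers were higher and 3 cardiomyocyte markers lower. The epicardial markers Upk3b, Upk1b, Msln, Lrrn4, Krt19 and Gpm6a were also higher at that level. So were Nr2f2, Kcna5, Cnn1, Mbp, Eng and Cd9 of other lists, while Kdr, Abcc9, Kcnj8 and Scx were lower. Recruited macrophage markers summed to 26.9, 47.3, 30.2, 71.5 and 73.7 FPKM in trained wild-type replicates 1 to 5, highest in the high-Myl7 replicates 4 and 5. Sedentary wild-type hearts had 23.7 to 28.8 FPKM. Epicardial markers summed to 5.76, 68.4, 10.5, 59.5 and 36.9 FPKM in trained wild-type replicates 1 to 5, against 6.73 to 8.17 FPKM in sedentary wild-type hearts. Their part in the wild-type change of Olfml2b was not tested.

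Genes of the same pathways were read from lists that leave out the 10 members. Of 19 tested further matricellular genes, 10 rose with training in labelled knockout hearts (median log2 fold change 0.75, against -0.02 over all tested genes) and 2 in wild-type hearts (0.39). Comp, a pentameric thrombospondin of cartilage and tendon, went from 3.35 ± 2.55 to 36.9 ± 22.2 FPKM in labelled knockout hearts (3.36 ± 0.67). Thbs1, an activator of latent TGF-β, rose by 2.19 ± 0.21 and Ccn5 by 1.92 ± 0.37. In wild-type hearts the 2 that rose were Ccn2, the connective tissue growth factor (1.61 ± 0.42), and Thbs3 (0.72 ± 0.20). At an unadjusted p below 0.05 in limma, Thbs1, Tnxb, Spock2, Smoc1 and Tgfbi were also higher there and Smoc2 was lower. Thbs4 (2.08 ± 0.30) and Ccn2 (1.92 ± 0.42) already differed between the sedentary genotypes.

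Receptors for the members are mainly integrins, syndecans and CD44. Of 11 tested genes of this kind, 4 rose with training in labelled knockout hearts (median 0.30) and 0 passed in wild-type hearts (0.23), where at an unadjusted p below 0.05 in limma 4 were higher and 2 lower. Cd44, the hyaluronan and osteopontin receptor, rose from 1.94 ± 0.0357 to 3.76 ± 0.426 FPKM in labelled knockout hearts (0.80 ± 0.10). Itgb3, a subunit of the vitronectin receptor, rose by 0.78 ± 0.16, Sdc1 by 0.70 ± 0.14 and Itga5, the fibronectin receptor subunit, by 0.46 ± 0.12. Between trained genotypes 8 of 11 were higher in labelled knockout hearts (median 0.52), among them Itga9, a tenascin-C receptor subunit (1.06 ± 0.19).

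Collagens are the fibres that many of the members bind or crosslink. Of 13 tested fibrillar and associated collagen genes, 12 rose with training in labelled knockout hearts (median 1.29) and 0 passed in wild-type hearts (0.01), where at an unadjusted p below 0.05 in limma 1 was higher. The interaction was past the threshold for 11 of them. Col3a1 went from 26.7 ± 4.56 to 122 ± 65.0 FPKM in labelled knockout hearts and Col1a1 from 23.5 ± 1.47 to 76.8 ± 31.8 FPKM. Of 17 crosslinking and processing genes, 13 rose in labelled knockout hearts (median 0.58), among them the Lox relatives Loxl3 (1.38 ± 0.26), Loxl2 (1.31 ± 0.26), Loxl1 (1.22 ± 0.19) and Loxl4 (0.82 ± 0.15). In wild-type hearts 1 rose, the prolyl hydroxylase gene P4ha1 (0.76 ± 0.17). Further genes there at an unadjusted p below 0.05 in limma were Bmp1, Pcolce, Serpinh1, P4ha2, Plod2, Plod3 and Efemp2, all higher.

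Of 12 tested fibroblast activation genes, 7 rose with training in labelled knockout hearts (median 1.10) and 1, Acta2, in wild-type hearts (median 0.28). At an unadjusted p below 0.05 in limma, Timp1 and Cnn1 were also higher with training in wild-type hearts and Scx was lower. Timp1, an inhibitor of matrix metalloproteinases, went from 3.73 ± 0.748 to 37.7 ± 20.1 FPKM in labelled knockout hearts (2.99 ± 0.36), and Ltbp2 (2.59 ± 0.40), Fstl1 (1.65 ± 0.22) and Mmp14 (0.93 ± 0.18) rose too. Acta2, smooth muscle actin and the classical myofibroblast gene, already differed between the sedentary groups. It was at 82.6 ± 42.0 FPKM in sedentary wild-type and 378 ± 20.3 FPKM in sedentary labelled knockout hearts (2.32 ± 0.24). With training it was at 142 ± 38.7 FPKM in hearts of wild-type mice and 482 ± 34.3 FPKM in labelled knockout hearts. The training change of Acta2 passed in wild-type hearts (0.86 ± 0.24) and did not pass in labelled knockout hearts (0.35 ± 0.24). That alone does not tell these changes apart. Of 17 TGF-β signalling genes, 8 rose with training in labelled knockout hearts (median 0.32), among them the ligands Tgfb2 (1.26 ± 0.17) and Tgfb3 (1.07 ± 0.17), the latent binding protein gene Ltbp3 (0.76 ± 0.14), the inhibitor Smad7 (0.68 ± 0.18) and the receptor Tgfbr2 (0.59 ± 0.09). In wild-type hearts 2 rose (median 0.24), Smad7 again (0.99 ± 0.18) and the receptor Acvrl1 (0.51 ± 0.15). Further genes at an unadjusted p below 0.05 in limma were Tgfb1, Tgfb3, Eng, Bambi, Ltbp3 and Ltbp4, all higher.

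**Figure D5:**
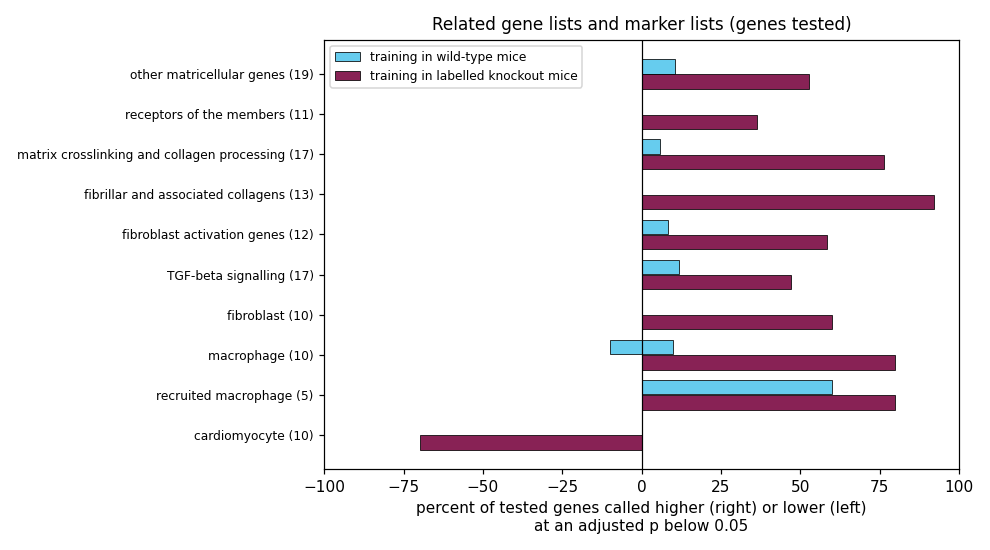
Percent of the tested genes of each list, number in parentheses, past an adjusted p of 0.05 with training, to the right where higher and to the left where lower, for wild-type and labelled knockout mice. The collagen list has the longest bar, at 12 of 13 genes higher in labelled knockout hearts, and 7 of 10 genes of the cardiomyocyte list were lower.

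Some pairs of genes varied together from heart to heart. Likeness was Pearson's r of log2(FPKM + 0.5) after the group means were subtracted, over 20 libraries that share dissection and depth differences, and it is given as a description. The genes most like Postn were Adamts2, a procollagen protease (r = 0.928), and Fstl1 (0.922). Fn1 was most like Elmo1 (0.928), Sparc like the matrix gene Fbln2 (0.916) and Ly6e (0.913), and Lox like Col5a2 (0.903) and Postn (0.882). Without the 4 libraries with high Myl7, the values for Lox were 0.693 with Col5a2 and 0.498 with Postn. Cthrc1 was most like Postn (0.897), and Cilp like Fxyd6 (0.889) and Fbln2 (0.854). Tnc was most like Col3a1 (0.898), a value that fell to 0.335 over the 16 libraries without high Myl7, while Postn and Adamts2 stayed at 0.856. Olfml2b was most like the Wnt receptor gene Fzd1 (0.816) and its r with the other members was -0.08 to 0.35. Without high Myl7 it was 0.01 to 0.46, when Tnc (-0.05 to 0.44) and Lox (-0.20 to 0.50) had similar ranges. Spp1 was most like Plekha6 (0.778) and Prg4 like the macrophage lectin gene Clec4a3 (0.793).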

How the data were processed

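Heart RNA of 20 mice in 4 groups of 5 was measured. Per the labels' protocols, libraries were made from poly-A selected RNA with a directional kit and sequenced on an Illumina instrument. The authors computed FPKM and deposited 1 table of 25851 genes. The tools named, per the submitters' processing notes, were DESeq2 1.20.0, featureCounts 1.5.0-p3 and HISAT2 2.0.5, with mm10 as genome and no role given. FPKM times GENCODE M21 exon length on GRCm38 gave whole reads, within 0.01, across all libraries for 24970 genes (96.6%) and in 96.2 to 96.4% of values, or 14.2 to 30.4 M reads a library. Lox was the 1 member without whole reads, so no reads are given for it.

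Members were matched by symbol. The members and gene lists were chosen with earlier results of these data known. Genes with a mean of at least 0.5 FPKM (13723, with 12128 left out) entered a limma model (version 3.58.1, R 4.3.3) of log2(FPKM + 0.5). A single fit held the 4 groups (16 residual degrees of freedom), with trended eBayes, two-sided tests and Benjamini-Hochberg adjustment over all tested genes at 0.05 in each of 5 comparisons. Adjusted p is printed only in comparisons among groups that do not hold trained labelled knockout hearts, since members may have been chosen on those. Nothing in the labels says how replicate numbers relate across groups. Intervals are 95%. The procedure was run on simulated data whose outcome is not given here. Values were drawn independently for each gene and library, so the high-Myl7 and high-Arntl libraries had no counterpart in it. Tables used Python 3.11.15, pandas 2.3.3 and numpy 2.4.6.

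Named besides the members are up to 4 genes a list past the threshold in order of p in a comparison, the genes most like each member, Ppargc1a, Gdf15 and markers. Genes of some lists that reached only an unadjusted p below 0.05 with training in wild-type hearts are named too. Col3a1 was named after its values were seen. Alternatives were pseudocounts (0.1, 1), filters (none, a mean of at least 2 FPKM), median-ratio and TPM scaling, fits of the compared groups alone, array weights, robust eBayes, a replicate block and each library left out. Chosen later, with the data in view, were leaving out the 4 high-Myl7 (over 1000 FPKM) or the 5 high-Arntl (over 2 FPKM) libraries, a log2 covariate of either gene, and limma voom on recovered reads.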

Additional observations from a re-analysis of the deposited data

Results flagged for a closer look

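Among 40 sets of 5 libraries (10 members in 4 groups), 4 held 1 library whose gap to the nearest other, divided by the range of the 5, was above Dixon's 95% critical value of 0.71. Chance flags about 1 in 20 groups. Sedentary labelled knockout replicate 4 was high for Spp1 (1.04 FPKM) and for Cilp (16.3 FPKM), and it was the highest of its group for 5 of the 10 members. In the same group replicate 1, the one with high Arntl, was low for Sparc (79.6 FPKM). Trained wild-type replicate 2 was high for Cilp (6.77 FPKM).

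The training change differed between the genotypes by the interaction test for 5 members, where 7.32% of all tested genes passed, 2.32% upward. The difference, labelled knockout minus wild-type on the log2 scale, was 2.93 for Cilp, 2.26 for Prg4, 2.08 for Postn, 1.69 for Tnc and 1.10 for Fn1. Each was higher in labelled knockout hearts, and the members may have been chosen for this pattern. The count fell to 3 with no filter, 1 with log2 Arntl as a covariate and 0 without the 5 libraries with high Arntl.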

How the results depend on the processing

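Training in labelled knockout hearts and genotype in trained hearts kept all members tested past the threshold under each of the 35 other settings (345 of 345 recomputed values in each). With a mean of at least 2 FPKM that was 6 of the 6 tested in both comparisons, and with limma voom 9 of 9. Both comparisons hold the trained labelled knockout libraries, and Tnc, Spp1 and Cthrc1 reached the 0.5 FPKM filter only through those. The members were also chosen with earlier results of these libraries known, so nothing is read from these counts. In wild-type hearts training was past the threshold for 1 member under each setting. Of 1715 recomputed log2 fold changes 1700 kept their sign, and the 15 with another sign were of values that had not passed.

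The interaction, 5 members in the report, gave 3 with no filter, 9 with array weights, 8 without the 4 libraries with high Myl7, 0 without the 5 with high Arntl and 1 with log2 Arntl as a covariate. It ranged from 2 to 8 with 1 library left out. It fell to 2 without sedentary wild-type replicate 2, sedentary labelled knockout replicate 3 or trained labelled knockout replicate 3, and to 3 without sedentary wild-type replicate 1, sedentary labelled knockout replicate 2, trained wild-type replicates 3 or 4, or trained labelled knockout replicates 1 or 4. It rose to 8 without trained labelled knockout replicate 2. Postn was lost without any 1 of 12 libraries, Fn1 of 10 and Cilp of 3. The cause was not tested. In the main fit 7.32% of all tested genes passed the interaction, 2.32% upward. Counts over all tested genes under the other settings are not given in this section, the replicate block apart.

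The sedentary genotype count, 1 in the report, was 2 with array weights and 0 with a mean of at least 2 FPKM, where Spp1 was not tested. It was 0 without the 5 libraries with high Arntl and with log2 Arntl as a covariate, and 0 to 1 with 1 library left out.

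With a replicate block the counts were 1, 1, 10, 10 and 5 in sedentary genotype, wild-type training, labelled knockout training, trained genotype and interaction, as without it. Same-numbered libraries had correlations of -0.28 to 0.48. In each comparison they were positive for replicate 1 (0.29 to 0.36) and replicate 5 (0.08 to 0.48). For replicates 2, 3 and 4 they had both signs. These values do not settle whether the numbers pair the samples. The block raised the count of all genes past the threshold in each comparison. It went from 1822 to 2467 in sedentary genotype and from 750 to 1664 in wild-type training. Labelled knockout training went from 3892 to 4275, trained genotype from 3825 to 4220 and the interaction from 1005 to 1305. TPM scaling raised the median of all genes by 0.23 in labelled knockout training, 0.25 in trained genotype and 0.16 in the interaction, and the members' changes in the first 2 stayed above that. Depth limits Spp1, Cthrc1 and Tnc, which had as few as 0, 0 and 10 reads a library.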
